A study of Mus musculus with 47 samples.

Results

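The DNA replication genes described here are 31 genes whose products license replication origins, unwind DNA, copy it, supply its nucleotides and join the copied fragments. They were picked by gene symbol, not by level, from the platform's annotation of the array. A probe set is a group of short probes for 1 transcript. Of the 31 genes, 30 had a probe set that carries their symbol alone, 56 probe sets in all, and *Gins2* had none. All 30 passed the filter on low signals, so they make up 30 of the 8810 tested genes and of the 12393 genes with such a probe set.

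The arrays measured total RNA from 47 mouse T-cell lymphoblastic tumours that arose on 14 lymphoma-prone genetic backgrounds. The knockout backgrounds are p53 knockout (3 tumours), E2A knockout (2), rag E2A knockout (2) and *Cdkn2a* knockout with retroviral insertional mutagenesis (9). The single transgenes are TLX1 (6), ThPOK (3), LMO1 (3), Tal1 (2), Nup98HoxD13 (3), Pokemon (2) and beta-catenin (3). The pairs of transgenes named by the labels are Tal1-LMO2 (3) and olig1-LMO1 (3). The last background is Ikaros Plastic (3), a name that the labels give without further detail. A genotype label separates the 6 TLX1 positive tumours from 41 negative ones, and the 6 positive tumours are exactly the TLX1 transgenic ones, so TLX1 status and TLX1 background cannot be told apart here. No normal thymus or untreated control is among the 47 samples, so each background was set against the mean of the other 13. The labels state no strain, age or sex, no promoter for any transgene, and not whether tumours came from separate mice; p-values therefore measure the spread between these samples.

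DNA replication begins when the origin recognition complex, with Cdc6 and Cdt1, loads the ring-shaped MCM helicase onto origins in G1 phase. Mcm10, Cdc45 and the GINS complex turn that ring into a moving helicase in S phase, and polymerase alpha with primase, polymerases delta and epsilon, the clamp Pcna and its loader RFC copy the strands. Many of these genes are transcribed together before S phase under E2F factors, and their transcripts are low in resting lymphocytes and high in dividing thymocytes and lymphoblasts.

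The signals are linear MAS5 values in arbitrary units, scaled to a common trimmed mean by the authors, with array medians between 49.6 and 106. The T cell label was checked on *Cd3e* and *Cd3g*, 2 chains of the T cell receptor complex. *Cd3e* read 84.4 in p53 knockout tumour 2, against 707 to 3549 in the other 46 tumours, and *Cd3g* read 46.2 there, against 805 to 4285. In that tumour 10 of 16 T cell genes were the lowest of the 47 tumours, and 11 of 12 endothelial and 9 of 17 stromal genes were the highest. No marker was at 0. Probe sets at the 2 ends of *Gapdh* compare signal from the 3' and 5' ends of one transcript, and their log2 ratio was 2.86, 2.37 and 1.87 in TLX1 tumours 2, 5 and 6, against 0.71 or less in the other 44. Results that rest on these arrays are given with and without them. Backgrounds are named as labelled, and the engineered genes do not check every label. *Zbtb7a*, which encodes Pokemon, read 862 and 884 in Pokemon tumours, against 137 or less elsewhere. *Lmo1* read 522 to 2344 in LMO1 tumours, against a median of 19.0 elsewhere. Its highest value, 2526, was in a tumour of a background not named after LMO1. In tumours labelled olig1-LMO1, however, *Lmo1* read 11.1 to 34.3, and in those labelled Tal1-LMO2 *Lmo2* read 13.6 to 19.8, against a median of 96.4 elsewhere. *Tcf3*, which encodes E2A, had medians of 211 and 251 in E2A and rag E2A knockout tumours, against 581 elsewhere. *Cdkn2a* had a median of 24.4 in *Cdkn2a* knockout tumours, against 27.5 elsewhere. *Tal1*, *Tlx1*, *Olig1* and *Hoxd13* were not above the other tumours in the backgrounds named after them. Nor was *Zbtb7b*, which encodes ThPOK, at 35.6 to 50.6 in ThPOK tumours, against a median of 49.3 elsewhere. The labels do not say whether these mouse probe sets match the transgenes, so a low level neither checks nor refutes a label.

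Each tumour received a replication score, the mean over the 30 genes of log2(signal + 15.9) after subtraction of the gene's mean over all tumours. A score of 0 is the average of the 47 tumours, and it is a description with no test. Tal1-LMO2 tumours had the highest mean score, 0.41 ± 0.13 (SD, n = 3), with tumours at 0.37, 0.31 and 0.56. Tal1 transgenic tumours scored 0.44 and 0.25, and olig1-LMO1 tumours 0.42, 0.16 and 0.32. In these backgrounds every tumour lay above the average.

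Pokemon tumours scored 0.32 and 0.27, and Nup98HoxD13 tumours 0.14, 0.27 and 0.26. E2A knockout tumours scored 0.46 and 0.07, and rag E2A knockout tumours 0.03 and 0.41. These backgrounds too had all tumours above 0. *Cdkn2a* knockout tumours ran between −0.52 and 0.34 with a median of 0.14 (n = 9), and their mean was 0.09 ± 0.26. Only tumour 8 of that group lay below 0.

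At the low end stood p53 knockout tumours with −0.10, −1.54 and 0.13, a mean of −0.50 ± 0.91 (n = 3). Ikaros Plastic tumours scored 0.14, −0.99 and −0.33, a mean of −0.39 ± 0.57. In both backgrounds tumour 2 is far below its companions, and each mean rests on it. All 3 beta-catenin tumours (−0.23, −0.28 and −0.56) and all 3 ThPOK tumours (−0.41, −0.06 and −0.49) were below the average. TLX1 tumours lay between −0.64 and 0.15 with a median of −0.10 (n = 6), and LMO1 tumours at −0.14, 0.19 and −0.09. The ranges of each pair of neighbours in this order overlap, so the order of adjacent backgrounds is not resolved by these tumours.

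**Figure D1:**
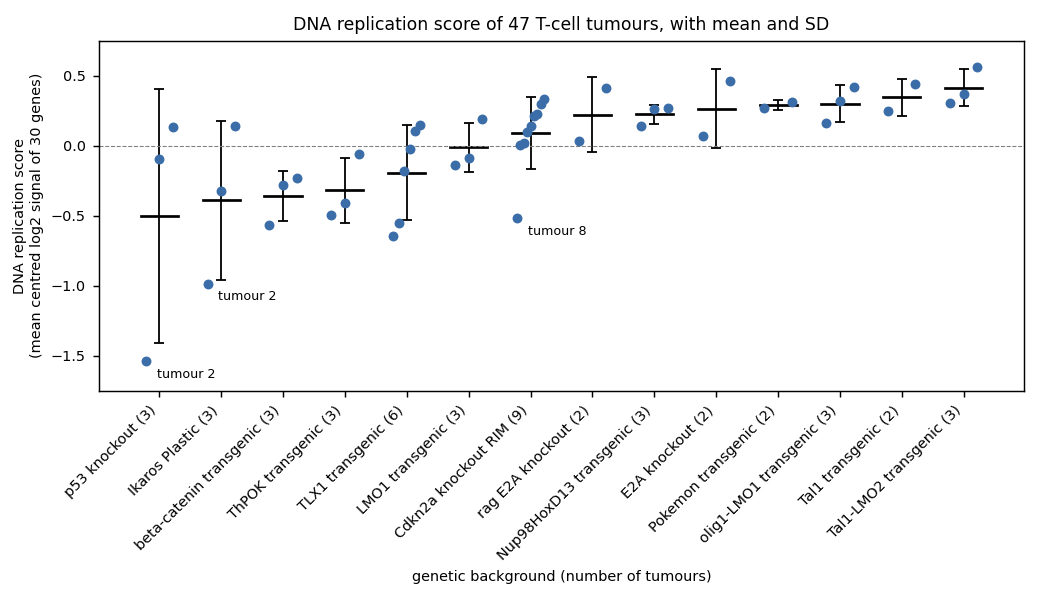
Replication score of each tumour (points, log2 units, 0 is the average of 47 tumours) by genetic background from the lowest to the highest mean, with the background's mean (line) and SD (bar). Tumour 2 of p53 knockout at −1.54 and tumour 2 of Ikaros Plastic at −0.99 are the lowest of all, and tumour 8 of *Cdkn2a* knockout (RIM, retroviral insertional mutagenesis) at −0.52 lies apart from the other 8 of its group.

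The lowest, second lowest and highest tumours (p53 knockout 2, Ikaros Plastic 2 and Tal1-LMO2 3) were the same under 5 other ways of computing the score (other pseudocounts, normalization and probe set choices). In p53 knockout tumour 2 all 30 genes were below the median of the other 46 tumours and 20 were the lowest of all, with a median signal of 31.8% of that median. *Rrm2*, the small subunit of ribonucleotide reductase, stood lowest there, at 12.5% of the other tumours' median, and *Pola2* highest, at 62.8%. Ikaros Plastic tumour 2 also had all 30 genes below the median, at a median of 43.6%, from 20.9% for *Cdc6* to 91.7% for *Ung*, but only 4 were the lowest of all. *Cdkn2a* knockout tumour 8 had 27 of 30 below, at a median of 65.5%, and TLX1 tumour 4 had 28 of 30 below, at 59.7%. *Fen1* went the other way in TLX1 tumour 4, at 148% of the other tumours' median.

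These low tumours also differ in other measures. T cell genes (16, summed signal) reached 1894 in p53 knockout tumour 2, against 27151 and 32100 in its companions, and endothelial genes (12) reached 19399, against 964 and 1048. In Ikaros Plastic tumour 2 the T cell sum was 11744, against 20880 and 24759, and the stromal sum (17 genes) was 15675, against 9999 and 7349. The part of other cells in these scores was not tested, and in such bulk RNA fewer cells of a type and less RNA per cell cannot be told apart.

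Over the 47 tumours, which share one scaling method and one platform, the score had a correlation of −0.64 with the log2 array median and of −0.64 within backgrounds. The correlation with the mean of T cell genes was 0.63, and 0.38 without p53 knockout tumour 2. With endothelial genes it was −0.67, and −0.46 without p53 knockout tumour 2. With stromal genes it was −0.63, and −0.57 without that tumour. With the *Gapdh* 3'/5' ratio it was −0.18. *Cdkn2a* knockout tumour 8 (array median 96.6) and Ikaros Plastic tumour 2 (106) lie at the bright end of the array medians, and the highest-scoring tumour (49.6) at the dim end. The part of array brightness in the score was not tested.

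**Figure D2:**
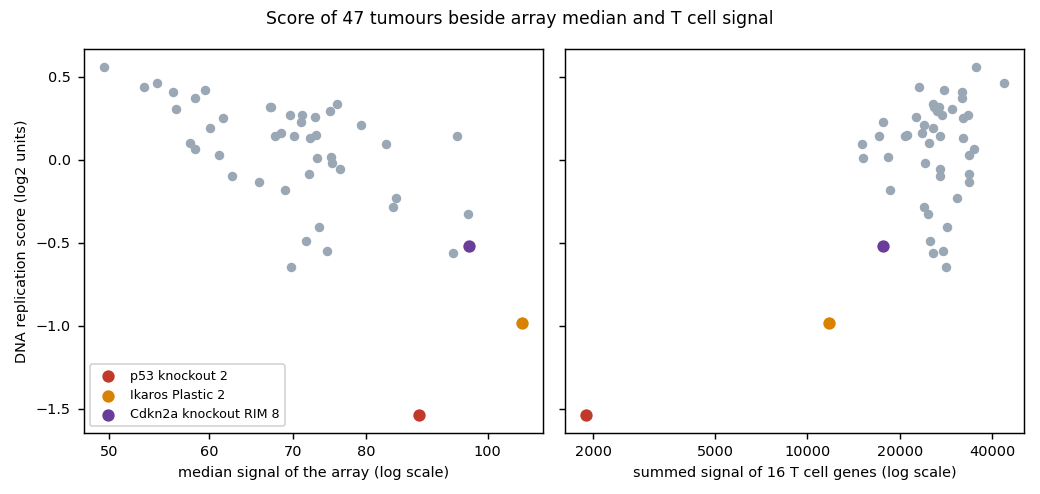
Replication score (log2 units) of 47 tumours against the array's median signal (left, log axis) and the summed signal of 16 T cell genes (right, log axis). Lower scores go with brighter arrays over medians of 49.6 to 106 (r = −0.64), and p53 knockout tumour 2 stands apart on the right at a T cell sum of 1894.

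How tightly the genes move together was read from each gene's correlation with the mean of the other 29 over the 47 tumours, which share arrays and scaling. *Mcm5*, a subunit of the helicase ring, followed the others most closely (r = 0.95). *Prim1*, the catalytic subunit of primase, had r = 0.93, as did the clamp loader subunit *Rfc5* (0.93), followed by the licensing factor *Cdc6* (0.89) and *Mcm4* (0.87). Of all 435 pairs of genes, 99.5% had a correlation above 0, with a median of 0.59. The closest pair was *Mcm5* with *Rfc5* (0.92).

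The 5 genes that leave the module by having the lowest correlations were *Orc2*, a subunit of the origin recognition complex (0.50), *Fen1*, the nuclease that trims Okazaki fragment flaps (0.53), *Pola2*, the accessory subunit of polymerase alpha (0.56), *Tyms*, thymidylate synthase (0.56), and *Tk1*, the cytosolic thymidine kinase of S phase (0.58). *Orc2* with *Fen1* was the lowest pair of all (−0.17). Within backgrounds the correlations of *Pola2*, *Tyms* and *Tk1* were higher (0.70, 0.71 and 0.71) than over all tumours. For *Fen1* the within-background value was 0.46 and for *Orc2* 0.55. Without p53 knockout tumour 2 the value for *Orc2* was 0.34. The set depends in part on the measure: within backgrounds *Ung* (0.62) was lower than *Pola2*, *Tyms* and *Tk1*, and without p53 knockout tumour 2 *Ung* (0.50) and *Mcm2* (0.55) were lower than *Pola2* (0.56) and *Tyms* (0.57). *Orc2* and *Fen1* were the lowest 2 by each of these 3 measures, but not by rank correlation over all tumours. There *Orc2* (0.40) was again the lowest, while *Fen1* (0.54) stood above *Pola2* (0.41), *Lig1* (0.44), *Ung* (0.51), *Tk1* (0.51) and *Tyms* (0.52). These values rest on 1 probe set per gene. The other *Orc2* probe sets had correlations of 0.24 and 0.66 with the one used, and the second *Fen1* probe set 0.72. The part of probe set choice was not tested.

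Outside the 30 genes, the 5 of 8780 tested genes whose levels followed the score most closely were *Tipin*, a partner of the replication fork protein Timeless (r = 0.90), *Hells*, a chromatin remodeller (0.88), *Lrr1* (0.88), *Dnmt1*, the maintenance DNA methyltransferase (0.87), and *Nasp*, a histone chaperone (0.87). The 3 most opposed were *Timp3*, an inhibitor of matrix metalloproteinases (−0.83), *Rhbdf1* (−0.82) and *Acadsb*, an acyl-CoA dehydrogenase (−0.80). The mean of 36 other replication genes had r = 0.95 with the score, that of 22 mitotic genes 0.77 and that of 19 genes of E2F and G1/S control 0.58. *Myc* had 0.34.

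**Figure D3:**
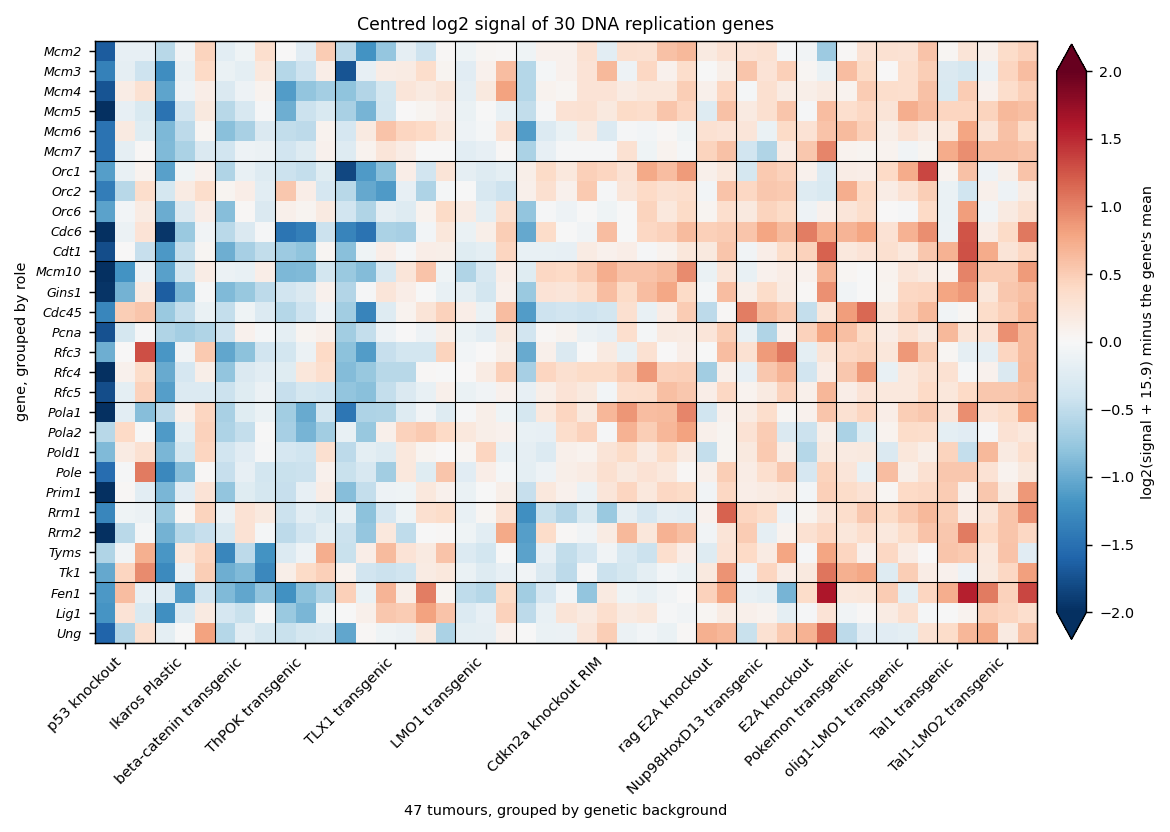
Log2(signal + 15.9) of 30 DNA replication genes (rows, grouped by role) in 47 tumours (columns, grouped by background from the lowest to the highest mean score), minus each gene's mean; blue is below and red above, on a scale cut at −2 and 2. Blue runs through all 30 rows in the columns of p53 knockout tumour 2 and Ikaros Plastic tumour 2. Over the 47 tumours the *Orc2* and *Fen1* rows have the lowest correlations with the other rows.

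Promoters of these genes were examined because members that move together share E2F control in textbook accounts. RefSeq promoter windows (GRCm38.p6, 250 bases before to 50 after the start site) were at hand for 27 of the 31 genes, and for *Mcm4*, *Gins1*, *Gins2* and *Pole* none was used. The E2F words searched on both strands were TTTCCCG, its variant TTTCGCG, a further variant TTTGCCG and finally TTTGGCG. At least 1 word was present in 13 of 27 windows (48.1%), against 1423 of 17464 other promoters (8.15%). The 5-letter word CCAAT was present in 59.3%, against 39.0%, and the word TTTGAA or its variant TTTAAA, which spell the cell-cycle homology region of late cell-cycle genes, in 22.2%, against 25.5%. An E2F word was also present in many promoters of other replication genes (15 of 38, 39.5%) and of E2F and G1/S control (8 of 17, 47.1%), lists close to these genes in role. The 20 mitotic promoters held those late words in 90.0% and an E2F word in 15.0%.

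E2F words were present both in genes that follow the module and in genes that leave it. Of the 5 closest genes, *Mcm5* and *Cdc6* held one, *Prim1* and *Rfc5* did not, and *Mcm4* had no window. Of the 5 that leave, *Fen1* and *Pola2* held one and *Orc2*, *Tyms* and *Tk1* did not. The 200 bases before the start site are printed 5′ to 3′ on the gene's strand for 3 genes that follow the module and 2 that leave it, so that both kinds can be compared; capitals mark E2F words. In *Mcm5* 2 words overlap, at 153 and 148 bases before the start (chr8:75109309-75109508, plus strand). The *Cdc6* word lies 137 bases before the start on the opposite strand (chr11:98907951-98908150, plus strand). The RefSeq record of *Cdc6* begins at base 98907709, so the start site used, and the stretch printed, lie inside the annotated gene. The *Fen1* word lies 24 bases before its start (chr19:10204394-10204593, minus strand). *Prim1* (chr10:128015015-128015214, plus strand) and *Orc2* (chr1:58505110-58505309, minus strand) hold none of these words.
Mcm5: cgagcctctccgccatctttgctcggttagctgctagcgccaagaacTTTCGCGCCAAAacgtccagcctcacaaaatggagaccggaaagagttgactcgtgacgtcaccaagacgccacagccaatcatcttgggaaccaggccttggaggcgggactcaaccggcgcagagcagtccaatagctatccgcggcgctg
Cdc6: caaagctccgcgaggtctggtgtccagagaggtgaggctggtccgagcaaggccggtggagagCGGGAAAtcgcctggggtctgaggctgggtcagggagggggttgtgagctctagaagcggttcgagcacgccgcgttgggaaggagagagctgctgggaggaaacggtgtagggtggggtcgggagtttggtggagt
Prim1: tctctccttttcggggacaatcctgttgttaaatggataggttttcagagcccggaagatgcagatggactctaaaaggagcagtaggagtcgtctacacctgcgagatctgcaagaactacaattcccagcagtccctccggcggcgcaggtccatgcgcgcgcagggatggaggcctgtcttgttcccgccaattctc
Orc2: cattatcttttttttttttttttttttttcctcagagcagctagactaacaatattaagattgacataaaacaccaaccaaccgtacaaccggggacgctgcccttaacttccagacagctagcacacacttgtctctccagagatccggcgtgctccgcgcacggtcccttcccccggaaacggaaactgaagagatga
Fen1: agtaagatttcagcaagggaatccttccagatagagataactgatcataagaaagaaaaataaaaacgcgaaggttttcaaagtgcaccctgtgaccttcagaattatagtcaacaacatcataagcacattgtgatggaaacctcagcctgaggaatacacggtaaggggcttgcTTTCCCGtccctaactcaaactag
None of the E2F words overlapped a CCAAT box in these stretches. A match is a run of letters and not a site, and its absence says only that those letters are not in the window.

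The test across the 14 backgrounds asked whether a gene differs between any of them. It called 23 of the 30 genes, where 68.1% of all tested genes were called, so the share of members is close to that of the array. *Fen1* (F = 6.51, adjusted p = 3.02e-05) and *Mcm7* (F = 6.32, adjusted p = 3.86e-05) had the lowest p. The 7 not called were *Mcm3*, *Mcm4*, *Orc6*, *Rfc3*, *Rfc4*, *Pold1* and *Pole*. Without p53 knockout tumour 2 the count was 27, and 6354 of all 8810 tested genes were called.

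**Figure D4:**
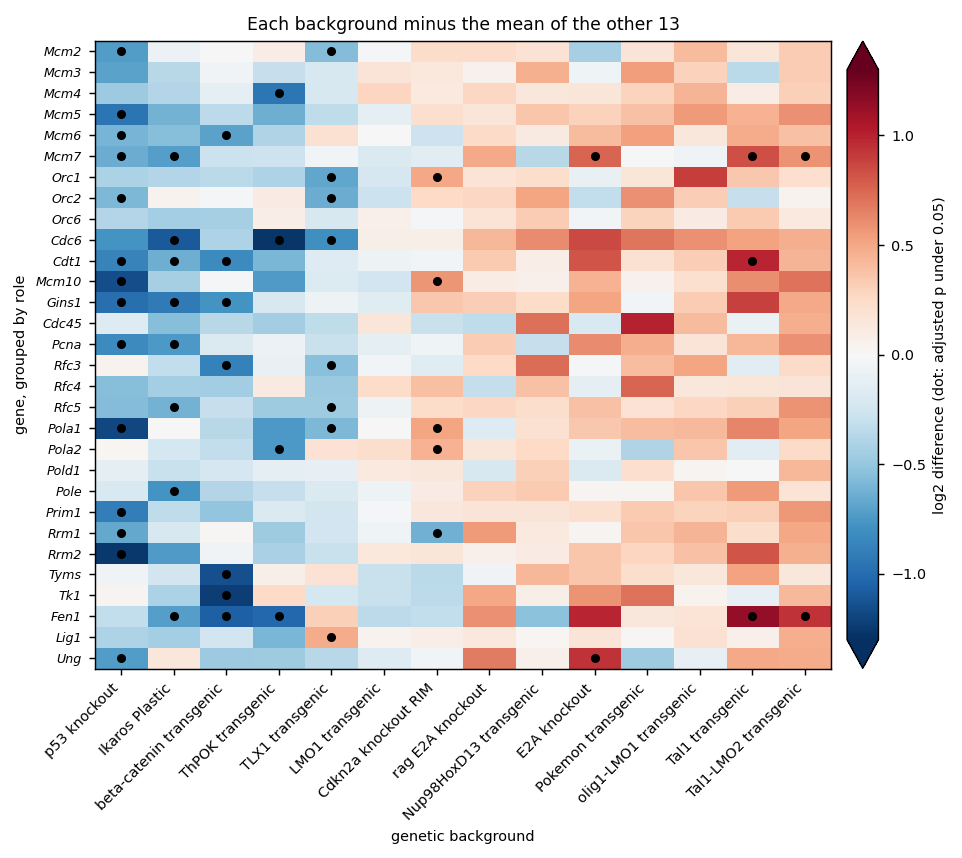
Log2 difference between each background (columns) and the mean of the other 13 for 30 DNA replication genes (rows, grouped by role), with a dot where the adjusted p is under 0.05. Blue fills the left columns, with 14 dots for p53 knockout and 7 for beta-catenin, and red the right ones, where dots sit on *Mcm7*, *Cdt1*, *Fen1* and *Ung*.

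In beta-catenin transgenic tumours *Tk1*, *Tyms* and *Fen1* had the largest differences among the genes that fell. *Tk1* read 235, 317 and 297 in the 3 beta-catenin tumours, against a median of 632 and a range of 238 to 1267 in the other 44. The highest beta-catenin tumour thus lies near the bottom of the other tumours' range. The difference was −1.22 ± 0.25 (log2, SE; adjusted p = 0.000507).

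*Tyms* read 35.1, 65.9 and 31.5 in beta-catenin tumours, against 36.6 to 188 elsewhere, a difference of −1.14 ± 0.26 (adjusted p = 0.00236). The signal of *Tyms* is dim, above the array median on 37 of 47 arrays, and its difference depends on the pseudocount (−0.69 with the median of all signals as pseudocount). *Fen1* read 722, 608 and 675, against a median of 1244 and a range of 536 to 3893, a difference of −1.06 ± 0.26 (adjusted p = 0.00426). These 3 genes kept their calls without any single beta-catenin tumour and in all 8 other settings, each of which used the same probe set for them. A second *Fen1* probe set gave −0.52. The other nucleotide supply genes, *Rrm1* (0.01) and *Rrm2* (−0.05), were not called. Their other probe sets gave higher values, 0.38 for *Rrm1* and 0.63 and 0.40 for *Rrm2*, so both depend on the probe set.

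In all, 7 of 30 genes fell in beta-catenin tumours and none rose, where 7.42% of tested genes fell, 11.4% rose and 18.8% were called. After quantile normalization the share of higher calls over all genes was 45.1% (60.5% as deposited), with 25 of the 30 genes below 0 (28 as deposited). The remaining 4 were the licensing factor *Cdt1* (−0.83 ± 0.22, adjusted p = 0.00803), *Mcm6* (−0.69), *Rfc3* (−0.88) and the GINS subunit *Gins1* (−0.77). The median difference of the 30 genes was −0.36, against 0.03 over all tested genes. Between 6 and 3 genes were called when 1 of the 3 tumours was left out, 4 without tumour 2 and 3 without tumour 3. On their probe sets of largest interquartile range *Cdt1* and *Rfc3* lost their calls. *Gins1* lost its call without any 1 of the 3 tumours, and a second *Mcm6* probe set gave −0.12.

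Among 36 other replication genes 7 fell and 1 rose in beta-catenin tumours. *Dtymk*, the thymidylate kinase that acts after Tk1 and Tyms, read 441 to 621, against a median of 1233 elsewhere, and fell by 1.14 (SE 0.25, adjusted p = 0.00159). *Rpa2*, a subunit of the single-strand binding protein, fell by 0.95 (SE 0.24, adjusted p = 0.00553) and *Orc5* by 0.59 (SE 0.16, adjusted p = 0.00856), while *Rpa1*, the large subunit of the same binding protein, rose by 0.71 (SE 0.19, adjusted p = 0.00667). Of 19 genes of E2F and G1/S control 3 rose and none fell. *Ccne1*, cyclin E, rose by 1.70 (SE 0.34, adjusted p = 0.000438), its inhibitor *Cdkn1a* by 2.07 (SE 0.58, adjusted p = 0.0107) and the kinase *Cdk2* by 0.65 (SE 0.21, adjusted p = 0.0283). None of 22 mitotic genes was called by limma, with 1 at an unadjusted p under 0.05. The 8 calls among other replication genes became 3 without beta-catenin tumour 1, 4 without tumour 2 and 2 without tumour 3, and the 3 calls of E2F and G1/S control became 1 without tumour 2 and 1 without tumour 3. *Dtymk* and *Ccne1* kept their calls whichever beta-catenin tumour was left out. Array medians were 84.6, 84.1 and 93.9 in beta-catenin tumours, in the upper part of the range over all arrays, and summed B cell signal (9 genes) was 9253, 7325 and 6634, against a median of 2546 in the other tumours. Of the 7 tested B cell genes 4 rose, and of 20 myeloid genes 2 rose. Their part in these differences was not tested.

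**Figure D5:**
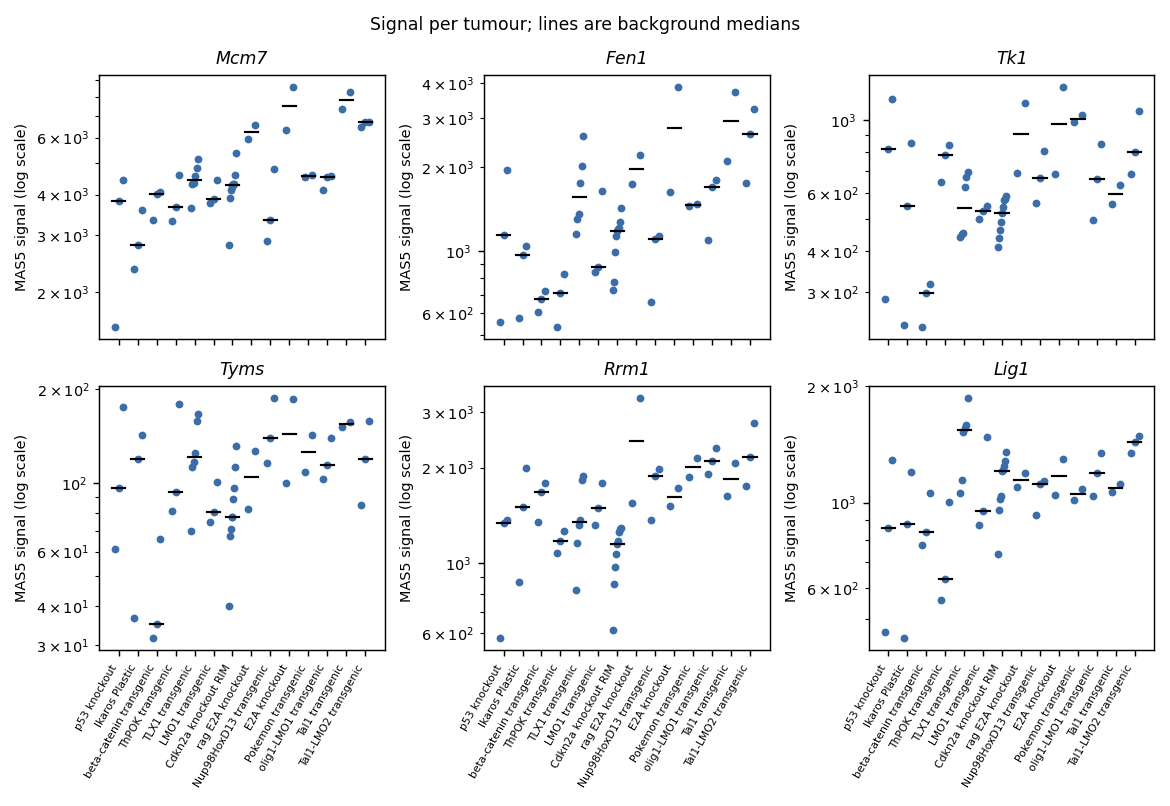
MAS5 signal (log axis) of 6 DNA replication genes in each tumour (points) by background in order of mean score, with the background's median (line). *Tk1* and *Tyms* are lowest in beta-catenin tumours, *Lig1* is highest in TLX1 tumours, and *Mcm7* and *Fen1* are high in E2A knockout, Tal1 and Tal1-LMO2 tumours.

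In p53 knockout tumours 14 of 30 genes fell and none rose, where 9.34% of tested genes fell, 12.4% rose and 21.7% were called. *Rrm2* read 1765, 347 and 2499 in p53 knockout tumours, against 1192 to 5303 with a median of 2919 in the other 44. Only tumour 2 lies outside the range of the others. The difference was −1.26 ± 0.30 (adjusted p = 0.00305), and −0.41 ± 0.27 without tumour 2 (adjusted p = 0.405).

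All 14 calls rest on that tumour. Without it limma called 0 of 30, with 3 at an unadjusted p under 0.05, the median difference moved to −0.10 (−0.60 with it), and 6.58% of tested genes were called. The tumour's T cell, endothelial and stromal sums are given above, and their part was not tested. The furthest from 0 of the 30 after it was left out was *Mcm10*, which helps to activate the helicase. It read 172, 89.1 and 380 in p53 knockout tumours, against 185 to 833 elsewhere, so tumour 1 too lay below every tumour of the other backgrounds. The difference was −1.16 ± 0.26 with all 3 tumours (adjusted p = 0.00164) and −0.70 ± 0.28 without tumour 2 (adjusted p = 0.13). *Pola1*, the catalytic subunit of polymerase alpha, read 367, 77.7 and 229, against 146 to 855, with −1.18 ± 0.26 and then −0.61 ± 0.26 (adjusted p = 0.161). *Tk1*, the last of the 3 at an unadjusted p under 0.05, went the other way, at 0.60 ± 0.25 without tumour 2 (adjusted p = 0.139).

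The other genes that fell only with tumour 2 included *Gins1* (−0.98), *Mcm5* (−0.95), *Prim1* (−0.89), *Cdt1* (−0.87) and *Pcna* (−0.82). *Mcm2*, *Mcm6*, *Mcm7*, *Orc2*, *Rrm1* and *Ung*, the uracil DNA glycosylase, had differences between −0.59 and −0.73. Of 36 other replication genes 6 fell in p53 knockout tumours, led by the primase subunit *Prim2* (−1.46 ± 0.26, adjusted p = 0.000167), *Rpa3* (−0.94) and *Uhrf1* (−0.98). Without tumour 2 the count was 1 that fell and 4 that rose. Of 19 genes of E2F and G1/S control 5 fell, among them *Rbl1*, which encodes the pocket protein p107 (−1.29), the kinase inhibitor *Cdkn1b* (−1.26, but 0.01 on its probe set of largest interquartile range) and *Cdk2* (−0.92), and 2 did without tumour 2. No mitotic gene of 22 was called by limma, with 2 at an unadjusted p under 0.05.

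In Ikaros Plastic tumours 8 of 30 genes fell and none rose, where 7.85% of tested genes fell, 15% rose and 22.8% were called. *Pcna*, the sliding clamp, read 3557, 3546 and 3345 in Ikaros Plastic tumours, against a median of 5691 and a range of 1607 to 10134 in the others. Its 3 tumours lie close together, unlike those of the other genes. The difference was −0.74 ± 0.19 (adjusted p = 0.00507), and *Pcna* was the single gene called whichever Ikaros Plastic tumour was left out, although not after quantile normalization.

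*Cdc6* read 536, 135 and 333, against a median of 675 elsewhere, with −1.09 ± 0.34 (adjusted p = 0.021), and *Mcm7* read 3583, 2352 and 2803, against a median of 4393, with −0.71 ± 0.17 (adjusted p = 0.00347). In both tumour 2 is the lowest of the 3. The others were *Gins1* (−0.92), *Pole*, the catalytic subunit of polymerase epsilon (−0.78), *Fen1* (−0.71), *Cdt1* (−0.63) and *Rfc5* (−0.62). Without Ikaros Plastic tumour 2 the count of 8 became 1, without tumour 1 it became 12 and without tumour 3 it became 5. The share of all tested genes called is not set beside these counts, so they do not tell the members from the array. After quantile normalization the count was 4, where 949 of all tested genes fell and 667 rose (692 and 1321 as deposited). Quantile normalization also moved the median of all genes to −0.08 (0.09 as deposited) and the share of higher calls over all genes to 41.3% (65.6% as deposited), while 27 of the 30 genes were below 0 under both.

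Ikaros Plastic tumours also had 11 of 36 other replication genes lower, led by *Rpa1* (−0.83 ± 0.19, adjusted p = 0.00197), *Gins4* (−0.56) and *Rpa2* (−0.91), and 6 of 22 mitotic genes lower, led by *Cdc20* (−0.99), *Top2a* (−0.84) and *Birc5* (−0.77). Without tumour 2 neither list had a call from limma, with 2 and 1 genes at an unadjusted p under 0.05. *E2f5* (0.73) and *E2f3* (0.67) rose among 19 genes of E2F and G1/S control, and without tumour 2 that count too was 0 (3 at an unadjusted p under 0.05). In Ikaros Plastic tumours 13 of 17 stromal and 6 of 20 myeloid genes rose, with stromal sums of 7349 to 15675, against a median of 5255 elsewhere. Their array medians of 94.6, 106 and 96.4 are among the 4 highest of the 47. The part of these measures was not tested.

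In ThPOK transgenic tumours 4 of 30 genes fell, where 5.21% of tested genes fell, 6.61% rose and 11.8% were called. *Cdc6* read 210, 417 and 196 in ThPOK tumours, against a median of 675 and a range of 125 to 1372 elsewhere, a difference of −1.26 ± 0.34 (adjusted p = 0.0148). *Fen1* read 709, 829 and 536, against a median of 1244, with −1.03 ± 0.26 (adjusted p = 0.00989), and its second probe set gave −0.66. *Mcm4* (−0.94 ± 0.26) read 654, 703 and 518, against a median of 1278, and its second probe set gave −0.33. *Mcm4* lost its call on its probe set of largest interquartile range and without any 1 of the 3 tumours. In each of these genes all 3 ThPOK tumours lie below the others' median.

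*Pola2* was the fourth (−0.74 ± 0.23, adjusted p = 0.0301), and it too lost its call without any 1 of the 3 tumours. The median of the 30 was −0.40, against 0.04 for all tested genes. The count was 1 without ThPOK tumour 1 and 0 without tumour 3 (6 at an unadjusted p under 0.05 by limma), so it rests on few tumours. Of the other replication genes *Rpa1* fell by 1.03 (SE 0.19, adjusted p = 0.000447), *Rfc2* by 0.68 and *Uhrf1* by 0.93, 4 of 36 in all. *Cdk2* (−1.03 ± 0.21) and *Rb1* (−0.61) fell among 19 genes of E2F and G1/S control. Among 22 mitotic genes *Ube2c* rose (0.91) and *Ttk* fell (−0.74). Without ThPOK tumour 3 these lists had 1, 1 and 0 calls (3 mitotic genes at an unadjusted p under 0.05), without tumour 1 they had 2, 2 and 0, and without tumour 2 they had 3, 1 and 1. Summed myeloid signal was 15498, 9095 and 12041 in ThPOK tumours, against a median of 7104 in the others, with 7 of 20 myeloid genes higher, and its part was not tested.

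TLX1 positive tumours had 3 of 30 genes lower and 1 higher than TLX1 negative ones, where 8.86% of tested genes were lower, 12.6% were higher and 21.4% were called in all. *Orc2* ran between 108 and 248 in TLX1 positive tumours with a median of 166 (n = 6), against 88.4 to 437 with a median of 284 in negative ones (n = 41). The difference was −0.68 ± 0.18 (adjusted p = 0.00482). *Orc1*, the ATPase subunit of the same complex, ran between 32.8 and 190 with a median of 97.8, against 64.1 to 417 with a median of 168, a difference of −0.72 ± 0.23 (adjusted p = 0.0187). For both genes the groups overlap.

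*Mcm2* ran between 613 and 1436 with a median of 1022 in TLX1 positive tumours, against 435 to 2223 with a median of 1505 in negative ones (−0.59 ± 0.18, adjusted p = 0.0134). *Lig1*, the ligase that seals Okazaki fragments, went the other way. It ran between 1060 and 1867 with a median of 1541, against 445 to 1487 with a median of 1063, and rose by 0.48 (SE 0.17, adjusted p = 0.0365). TLX1 tumours 4 and 5 read 1060 and 1144, and the other 4 lay above every negative tumour. *Fen1* was 0.42 higher and not called.

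Set against the mean of the other 13 backgrounds, which shares its TLX1 tumours with that comparison, 7 genes were lower and 1 higher, where 12.5% of tested genes were lower, 19% higher and 31.5% called. The 4 genes above were joined by *Cdc6* (−0.80 ± 0.25), *Pola1* (−0.58), *Rfc3* (−0.55) and *Rfc5* (−0.46). The role with the lowest mean in TLX1 tumours was origin recognition and licensing (−0.43 ± 0.45, SD, n = 6) and the highest was flap removal, ligation and uracil removal (0.17 ± 0.31), as a description of centred log2 levels.

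The counts of members changed when tumours were left out. The share of all tested genes called in each setting is not set beside them, so they do not tell the members from the array. Without TLX1 tumours 2, 5 and 6, the ones of high 3'/5' ratio, which leaves 3 TLX1 tumours, limma called 0 of 30 in the first comparison, with 2 at an unadjusted p under 0.05, and 1 in the second. The differences were then −0.34 for *Orc2*, −0.57 for *Orc1*, −0.30 for *Mcm2* and 0.42 for *Lig1* in the first comparison. With the *Gapdh* ratio as a covariate both counts were 0, with 0 and 3 at an unadjusted p under 0.05, and *Orc2* and *Mcm2* stood at 0.14 and 0.0044. In the first comparison the count was 1 without TLX1 tumour 2, 2 without tumour 5, 8 without p53 knockout tumour 2 and 0 with the background as a random block (1 at an unadjusted p under 0.05). In the second it was 3 without TLX1 tumour 4, whose ratio was 0.29, and 4 without tumour 5. How far the ratio accounts for these changes was not tested. The other probe sets of some genes differ. The other *Orc2* probe sets gave 0.16 and −1.01, the second *Mcm2* probe set gave −0.20, and a second *Rrm1* probe set gave −2.38 where the one used gave −0.13. The other *Rrm2* probe sets gave −0.90 and −0.89 (−0.28 on the one used) and the second *Rfc3* probe set −1.23 (−0.51). The second *Pold1* probe set went the other way, at 0.70 (−0.13).

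Among other replication genes, 3 of 36 fell and 2 rose in TLX1 positive tumours. *Donson*, a factor of replication fork stability, read 54.0 to 255, against a median of 260, and fell by 0.98 (SE 0.20, adjusted p = 0.000392). *Mcmbp*, an MCM-binding protein, fell by 0.50 (SE 0.11, adjusted p = 0.000965) and *Rpa3* by 0.63 (SE 0.20, adjusted p = 0.0232). *Pold3*, a polymerase delta subunit, rose by 0.70 (SE 0.18, adjusted p = 0.0043) and *Orc5* by 0.39. Of 19 genes of E2F and G1/S control 4 fell, led by *E2f6* (−0.88), *Tfdp1* (−0.56) and *E2f5* (−0.69), and of 22 mitotic genes *Plk1* (−0.71) and *Kif20a* (−0.62) fell. Without TLX1 tumours 2, 5 and 6 only 1 gene of the 3 lists was called, a replication gene that fell. Summed myeloid signal (20 genes) reached 80912 in TLX1 tumour 2 and 4225 to 12979 in the other 5, against 1397 to 15498 in the 41 negative tumours, and B cell signal (9 genes) reached 18918 in TLX1 tumour 5. The stromal sum (17 genes) had a median of 10998 in TLX1 tumours, against 5108 in the negative ones. Against the other 13 backgrounds 13 of 17 stromal genes rose and all 17 had a positive difference, with a median of 1.15. Of the myeloid genes 8 of 20 rose there. Their part in these differences was not tested.

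In *Cdkn2a* knockout tumours with retroviral insertional mutagenesis both polymerase alpha subunits, *Orc1* and *Mcm10* rose, and *Rrm1*, the large subunit of ribonucleotide reductase, fell. These 4 higher and 1 lower of 30 genes compare with 16.1% of tested genes that rose and 14.6% that fell. In all 30.7% of tested genes were called, a larger share than among the 30. *Mcm10* ran between 345 and 809 with a median of 617 in *Cdkn2a* knockout tumours (n = 9), against 89.1 to 833 with a median of 417 in the other 38, and rose by 0.58 (SE 0.16, adjusted p = 0.0057). *Orc1* ran between 171 and 294 with a median of 215, against 32.8 to 417 with a median of 145, and rose by 0.50 (SE 0.17, adjusted p = 0.0192). The lowest *Cdkn2a* knockout value of *Orc1* lies above the median of the others.

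*Pola1* rose by 0.51 (SE 0.16, adjusted p = 0.0136) and *Pola2* by 0.46 (SE 0.14, adjusted p = 0.0144), with *Pola2* at 287 to 575 in *Cdkn2a* knockout tumours, against 138 to 472 in the others. *Rrm1* ran between 613 and 1285 with a median of 1150, against 578 to 3315 with a median of 1651, a difference of −0.63 ± 0.14 (adjusted p = 0.000834). All 5 calls stood whichever of the 9 tumours was left out. A second *Rrm1* probe set, above the array median on 45 arrays, gave 0.07, so the direction of *Rrm1* depends on the probe set.

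The nucleotide supply genes had a mean centred log2 level of −0.20 ± 0.31 (SD, n = 9) in *Cdkn2a* knockout tumours and the polymerases and primase 0.24 ± 0.26, the lowest and the highest of the 7 roles there. These means rest on 1 probe set per gene. Against the other 13 backgrounds the other *Rrm2* probe sets gave 0.57 and 0.48, where the one used gave 0.15. With *Rrm1* too higher on its second probe set, the low nucleotide supply mean depends on the probe sets. Of 36 other replication genes limma called 0, with 5 at an unadjusted p under 0.05. Of 19 genes of E2F and G1/S control 7 rose and 1 fell, with *E2f5* (0.64 ± 0.13, adjusted p = 0.000226), *E2f6* (0.56) and *Rbl1* (0.59) higher and *E2f1* (−0.46) lower. *Kif11*, a mitotic kinesin (0.52), was the 1 mitotic gene called. Without *Cdkn2a* knockout tumour 8, 3 other replication genes and 2 mitotic genes rose, and without tumour 7 or tumour 9, 1 other replication gene rose and limma called 0 mitotic genes (1 at an unadjusted p under 0.05 in each case). The 8 calls of E2F and G1/S control became 5 without tumour 5, 7 or 9. Of 16 T cell genes 5 fell and 1 rose in *Cdkn2a* knockout tumours, and their summed signal had a median of 17689, against 25799 over all 47 tumours. Of 17 stromal genes 4 rose and 1 fell, and of 20 myeloid genes 5 rose. The part of these markers was not tested.

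At the high end of the scores few genes passed the test, and *Mcm7* and *Fen1* recur among them. In Tal1 transgenic tumours 3 of 30 rose, where 3.1% of tested genes rose, 1.86% fell and 4.96% were called. *Mcm7* read 8311 and 7339 in the 2 Tal1 tumours, against a median of 4305 and a range of 1565 to 8617 in the other 45, and rose by 0.84 (SE 0.21, adjusted p = 0.0108). *Cdt1* read 4463 and 2992, against a median of 1946, and rose by 0.99 (SE 0.27, adjusted p = 0.0228). *Fen1* read 3736 and 2101, against a median of 1182, and rose by 1.15 (SE 0.32, adjusted p = 0.0255). Of these values only *Cdt1* in tumour 1 exceeds every other tumour.

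In tumours labelled Tal1-LMO2 *Mcm7* (6677, 6713 and 6458, against a median of 4304; 0.58 ± 0.17, adjusted p = 0.0318) and *Fen1* (1751, 2623 and 3228, against a median of 1166; 0.94 ± 0.26, adjusted p = 0.0228) rose, 2 of 30, where 1.44% of tested genes rose, 5.23% fell and 6.67% were called. All 30 genes had a positive difference in these tumours, with a median of 0.45, against −0.05 for all tested genes. In E2A knockout tumours *Mcm7* read 8617 and 6347, against a median of 4305, and rose by 0.75 (SE 0.21, adjusted p = 0.0273). *Ung*, which removes uracil from DNA, read 832 and 602, against a median of 336 and a highest value of 646, and rose by 0.94 (SE 0.28, adjusted p = 0.0441). These 2 of 30 compare with 1.51% of tested genes that rose, 2.83% that fell and 4.34% called. Of the other replication, E2F and G1/S control and mitotic lists, *Gins4* (0.46) was the 1 gene called in these 3 backgrounds, in tumours labelled Tal1-LMO2, and it lost its call without any 1 of the 3. The array medians of Tal1-LMO2 tumour 3, Tal1 tumour 1 and E2A knockout tumour 1 were 49.6, 53.3 and 54.6, the 3 lowest of the 47. In tumours labelled Tal1-LMO2 12 of 17 stromal and 8 of 20 myeloid genes fell, with stromal sums of 519, 808 and 565, and in E2A knockout tumours 10 of 17 and 6 of 20 fell, with stromal sums of 1435 and 665. The median stromal sum over all 47 tumours was 5315. In Tal1 tumours limma called 0 genes of either list (1 of each at an unadjusted p under 0.05), and the stromal sums were 5252 and 4135. The part of these measures in the differences was not tested.

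None of these calls stood in every setting. After quantile normalization limma called 0 of 30 in Tal1, Tal1-LMO2 and E2A knockout tumours (6, 4 and 3 at an unadjusted p under 0.05), and the median of all genes moved to 0.04 in Tal1 tumours (−0.09 as deposited) and to 0.04 in E2A knockout tumours (−0.07). The share of higher calls over all genes in E2A knockout tumours was then 21.6% (34.8% as deposited). Leaving out 1 tumour left 0 or 1 called in each of the 3: 0 without Tal1 tumour 1, 0 without Tal1-LMO2 tumours 2 or 3 and 0 without E2A knockout tumour 1. *Mcm7* and *Fen1* also differ between probe sets. The *Fen1* probe set used has probes that Affymetrix marks as likely to match other sequences too, and the second one gave 0.08 in Tal1 tumours, 0.47 in Tal1-LMO2 tumours and 0.19 in E2A knockout tumours, where the one used gave 1.15, 0.94 and 0.99. For *Mcm7* the 3 other probe sets gave −0.16, −0.18 and 0.68 in Tal1 tumours.

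In LMO1, olig1-LMO1, rag E2A knockout, Nup98HoxD13 and Pokemon tumours limma called 0 of 30 genes, with 0, 2, 3, 5 and 6 at an unadjusted p under 0.05. Of all tested genes 1.03% were called in LMO1 tumours (0.67% higher, 0.363% lower), 0.658% in olig1-LMO1 tumours (0.204% and 0.454%) and 1.56% in rag E2A knockout tumours (0.295% and 1.26%). In Nup98HoxD13 tumours 3.01% were called (1.37% higher, 1.63% lower) and in Pokemon tumours 0.953% (0.352% and 0.602%). The rag E2A knockout share of higher calls was 19%, and 40.8% after quantile normalization. Positive differences were seen for 11, 28, 25, 27 and 27 of the 30 genes, with medians of −0.05, 0.31, 0.25, 0.21 and 0.28. A p above the threshold with 2 or 3 tumours does not show that the genes were alike. *Rb1* rose in Nup98HoxD13 tumours (0.96 ± 0.19, adjusted p = 0.00203), the 1 call among the other 3 lists in these 5 backgrounds, and limma called 0 of that list without tumour 1 (1 at an unadjusted p under 0.05).

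A few genes were called in no single background on the probe set used. *Cdc45*, part of the active helicase, ran between 125 and 759 and was called across backgrounds (adjusted p = 0.0227). Its difference in Pokemon tumours was 1.00 and was not called. *Mcm3* (414 to 2215), *Orc6* (230 to 910), *Rfc4* (144 to 1186) and *Pold1*, the catalytic subunit of polymerase delta (277 to 848), were called in none of the tests. One other *Mcm3* probe set gave −1.53 in TLX1 and 1.13 in Pokemon tumours, where the one used gave −0.21 and 0.54. The remaining ones gave −0.27 to 0.17 and −0.34 to 0.84. The second *Pold1* probe set gave −0.87 in ThPOK, −0.90 in Ikaros Plastic, −0.85 in beta-catenin and 0.64 in TLX1 tumours. The one used gave −0.13, −0.29, −0.21 and −0.11. *Mcm3* had its lowest value in TLX1 tumour 4 and *Rfc4* in p53 knockout tumour 2. The highest value belonged to E2A knockout tumour 1 for 6 of the 30 genes and to Tal1 tumour 1 for another 6.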

How the data were processed

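Total RNA of 47 tumours was hybridised to single-colour Affymetrix arrays. The deposited values are MAS5 signals, made by the authors per the submitters' processing notes. No source used here gives the MAS5 version or scaling target, but every array's mean after trimming 2% at each end lay between 250.063 and 250.129. Values stayed linear and were turned into log2(signal + 15.853), where the pseudocount is the 25th percentile of all signals. Probe sets with 1 gene symbol in the platform annotation were used (20380), control probe sets were left out, and the brightest probe set above the array median on at least 2 arrays stood for its gene. *Gins2* had no such probe set. Linear models were fitted over all 8810 genes and 47 tumours with limma 3.58.1 in R 4.3.3 (eBayes with trend), and p-values were adjusted by Benjamini and Hochberg over all genes, with a threshold of 0.05. One model held the 14 backgrounds, each set against the mean of the other 13, so these comparisons share tumours, and another held TLX1 status. The number of arrays in a group limits the precision. Figures and promoter words were made with Python 3.11.15, pandas 2.3.3 and matplotlib 3.10.9.

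In each comparison called members were named by lowest p, at most 6 in each direction in full, the rest with their difference. At most 3 called genes of each other list were named in each direction, with the 5 genes closest to the score and the 3 most opposed. Members and lists were chosen with earlier results of these data known. Other pseudocounts, filters, probe sets, quantile normalization, no trend, a replicate block, a random block and each tumour left out were tried. Leaving tumours out of the other lists was chosen after seeing the data. The replicate numbers in the titles are not stated to pair tumours across backgrounds.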

Additional observations from a re-analysis of the deposited data

Results flagged for a closer look

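In 62 sets of tumours of 1 background (the score and each gene in the TLX1 and *Cdkn2a* knockout groups, the groups large enough to test) a single tumour stood apart from the rest by Dixon's test 13 times, where chance gives about 1 in 20. *Cdkn2a* knockout tumour 8 accounted for 11 of them. Its score was −0.52, against 0.01 to 0.34 in the other 8 tumours. Among helicase subunits its signals were 760 for *Mcm4* (1162 to 1596 in the other 8), 1072 for *Mcm6* (1928 to 2652) and 2793 for *Mcm7* (3904 to 5363). Its licensing and activation genes read 284 for *Orc6* (468 to 692), 272 for *Cdc6* (538 to 887), 345 for *Mcm10* (547 to 809) and 244 for *Gins1* (495 to 723). Its clamp loader genes read 161 for *Rfc3* (275 to 425) and 400.2 for *Rfc4* (805 to 1186), and *Rrm2* read 1192 (2444 to 4163). These genes share 1 array, so the 11 are not independent. That array had a median of 96.6 and a summed T cell signal of 17626, within the 15049 to 26532 of its group. By the mean of centred log2 levels its T cell genes (−0.96) were the lowest of the group and its B cell genes (1.86) the highest. Its endothelial sum of 1660 was the group's highest too. The part of array brightness and of other cells was not tested.

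TLX1 tumour 4 stood apart in the remaining 2. *Mcm3* read 414 there, against 1246 to 1802 in the other 5 TLX1 tumours, and *Cdt1* read 1030, against 1739 to 2031.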

How the results depend on the processing

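Of 1507 alternative values of named genes, 1214 kept call and direction, 285 lost the call and 8 turned direction. With the *Gapdh* ratio as a covariate, TLX1 positive minus negative was 0.14 for *Orc2*, 0.0044 for *Mcm2*, 0.099 for *Tfdp1* and 0.031 for *Plk1*, and TLX1 minus the other 13 was 0.017 for *Plk1* and 0.050 for *Kif20a*. On the probe set of largest interquartile range *Cdkn1b* was 0.014 in p53 knockout and *Rrm1* 0.067 in *Cdkn2a* knockout tumours. The cause of these turns was not tested.

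In TLX1 positive against negative tumours 4 members were called, and the count was 9 on the probe sets of largest interquartile range and 0 with background as a random block, without TLX1 tumours 2, 5 and 6, and with the covariate. Against the other 13 the 8 became 1 without those tumours and 0 with the covariate. After quantile normalization 0 were called in Tal1, Tal1-LMO2 and E2A knockout and 4 in Ikaros Plastic tumours. The probe sets of largest interquartile range gave 1 in Tal1, Tal1-LMO2 and E2A knockout tumours, and no filter gave 1 in E2A knockout.

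Title numbers only name tumours: same-numbered tumours of different backgrounds had a median correlation of deviations of −0.0032 (230 pairs), and others 0.0039 (772 pairs). With the number as a replicate block the members called were 4 for TLX1 against the other 13 (8 without the block), 1 for E2A knockout (2) and 3 for *Cdkn2a* knockout (5).

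Leaving out 1 tumour gave 1 to 8 calls for TLX1 positive against negative, 3 to 8 for TLX1 against the other 13, 0 to 19 for p53 knockout, 0 to 3 for ThPOK, 0 to 1 for Tal1, Tal1-LMO2 and E2A knockout, 1 to 12 for Ikaros Plastic, 3 to 6 for beta-catenin and 5 to 7 for *Cdkn2a* knockout. Where a background keeps 1 tumour, that tumour is assumed to vary like the others. For most counts with tumours left out, the share of all tested genes called in that setting is not printed. Such counts alone do not show whether the members or the whole array changed. Dim genes such as *Tyms* and *Orc1* are limited by signal over background, and groups of 2 or 3 tumours by their number.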
